A study of Homo sapiens with 7 samples.

Results

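The genes described here encode the collagens, laminins, integrins and 6 further proteins of the extracellular matrix (TNC, PAPPA, SPARC, TGFBI, SDC2 and SMOC1) in UM-UC-3 cells, a long-established line from a human urothelial carcinoma. They were taken by symbol: all listed collagen chains, laminin chains and integrin subunits other than ITGA6, and 10 named matrix genes, of which these 6 are listed and FN1, POSTN, LOX and THBS1 were not analysed here. That gave 38 of the 13872 listed genes, namely 13 collagen genes, 7 laminin genes, 7 integrin alpha genes, 5 integrin beta genes and the 6 others. ITGB3 stands under 2 identifiers with identical values and was counted once.

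RNA was sequenced from 3 clones with high aldehyde dehydrogenase (ALDH) activity (H1, H6 and H10, described by the submitters as stem-like), 3 clones with low activity (L1, L3 and L8, described as non-stem-like) and 1 culture of wild-type cells (WT), the control. Clones were isolated with the ALDEFLUOR assay, in which ALDH activity makes cells fluoresce, and the labels describe their growth in DMEM with 10% FBS. Each clone gave 1 library and all came from the same line, so p values measure the spread between clones of 1 line, and the wild-type culture has no replicate. Values are CPM, read counts scaled to library size and not divided by gene length, so levels are compared between libraries and not between genes.

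The extracellular matrix is the protein network that cells secrete and stand on. Type IV collagen and laminin trimers build the basement membrane under an epithelium such as the urothelium, and fibrillar and beaded-filament collagens lie in the tissue beyond it. Integrins are receptors made of 1 alpha and 1 beta subunit that bind these proteins outside the cell and, through adaptor proteins, the actin cytoskeleton inside it. The matrix glycoproteins modulate this adhesion: tenascin-C (TNC), for example, is deposited in developing, wounded and tumour tissue.

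Recovered read totals in listed genes ranged from 24177114 to 25664901 per library. In H1 the total of 25664901 exceeded the recovered library size of 25165298. In wild-type cells 25232850 exceeded 25021256. The totals are therefore not a plain measure of depth, and the edgeR and DESeq2 fits used these reads. Summed KRT7, KRT8 and KRT18, the 3 listed of 12 urothelial or epithelial markers, were 498.56 to 738.55 CPM in ALDH-high clones, 234.87 to 519.08 CPM in ALDH-low clones and 750.52 CPM in wild-type cells. KRT8 and KRT18 make up nearly all of that sum, and KRT7 ran the other way, at 1.99 ± 0.731 CPM in ALDH-high and 5.30 ± 1.83 CPM in ALDH-low clones (SD, n = 3 each). The 9 fibroblast markers had only ACTA2 listed, at 0.16 to 0.60 CPM in ALDH-high clones, 0.27 to 0.52 CPM in ALDH-low clones and 2.32 CPM in wild-type cells. None of the 4 endothelial markers was listed. Of the 6 leukocyte markers CD68 and ITGAX were listed, and they summed to 84.68 to 131.09 CPM in ALDH-high clones, 64.52 to 94.12 CPM in ALDH-low clones and 141 CPM in wild-type cells. Nearly all of this was CD68, while ITGAX averaged 0.297 CPM in ALDH-high and 0.807 CPM in ALDH-low clones. The part of these markers in the results was not tested.

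Of the 38 genes, 32 reached 1 CPM in at least 3 of the 6 clones and were tested. In these, ITGA3, TNC and PAPPA fell in ALDH-high clones (limma on log2(CPM + 1), Benjamini-Hochberg adjustment over 12705 genes, threshold 0.05), none rose, and 29 did not pass. Over all tested genes 0.693% fell and 0.645% rose. Taking means of log2(CPM + 1), as in every count of lower and higher means here, ALDH-high was below ALDH-low in 26 of the 32 and above it in 6. The median difference was -0.75 on that scale, against 0.00 over all tested genes. At an unadjusted p under 0.05, 16 were lower and 2 higher, where the shares over all tested genes were 9.31% and 10.4%. Bulk libraries cannot tell fewer cells with a transcript from less transcript per cell.

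The highest ALDH-high clone lay below the lowest ALDH-low clone in 13 of the 38 genes (34.2%), and the lowest ALDH-high clone lay above the highest ALDH-low clone in 3 (7.89%). Among all listed genes these shares were 11.6% and 14.1%. TNC, PAPPA and ITGA4 reached the filter through the ALDH-low clones alone and LAMA1 through the ALDH-high clones alone, and these had to differ in level. With no filter, all 38 were fitted: 28 were lower and 10 higher in ALDH-high clones with a median of -0.56, 2 (ITGA3 and PAPPA) fell and none rose, where 0.519% and 0.526% of all listed genes did. On recovered whole reads, edgeR called 2 of the 32 lower and 0 higher (over all tested genes 0.59% and 0.425%), and DESeq2 called 14 lower and 1 higher (4.23% and 3.67%).

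**Figure D1:**
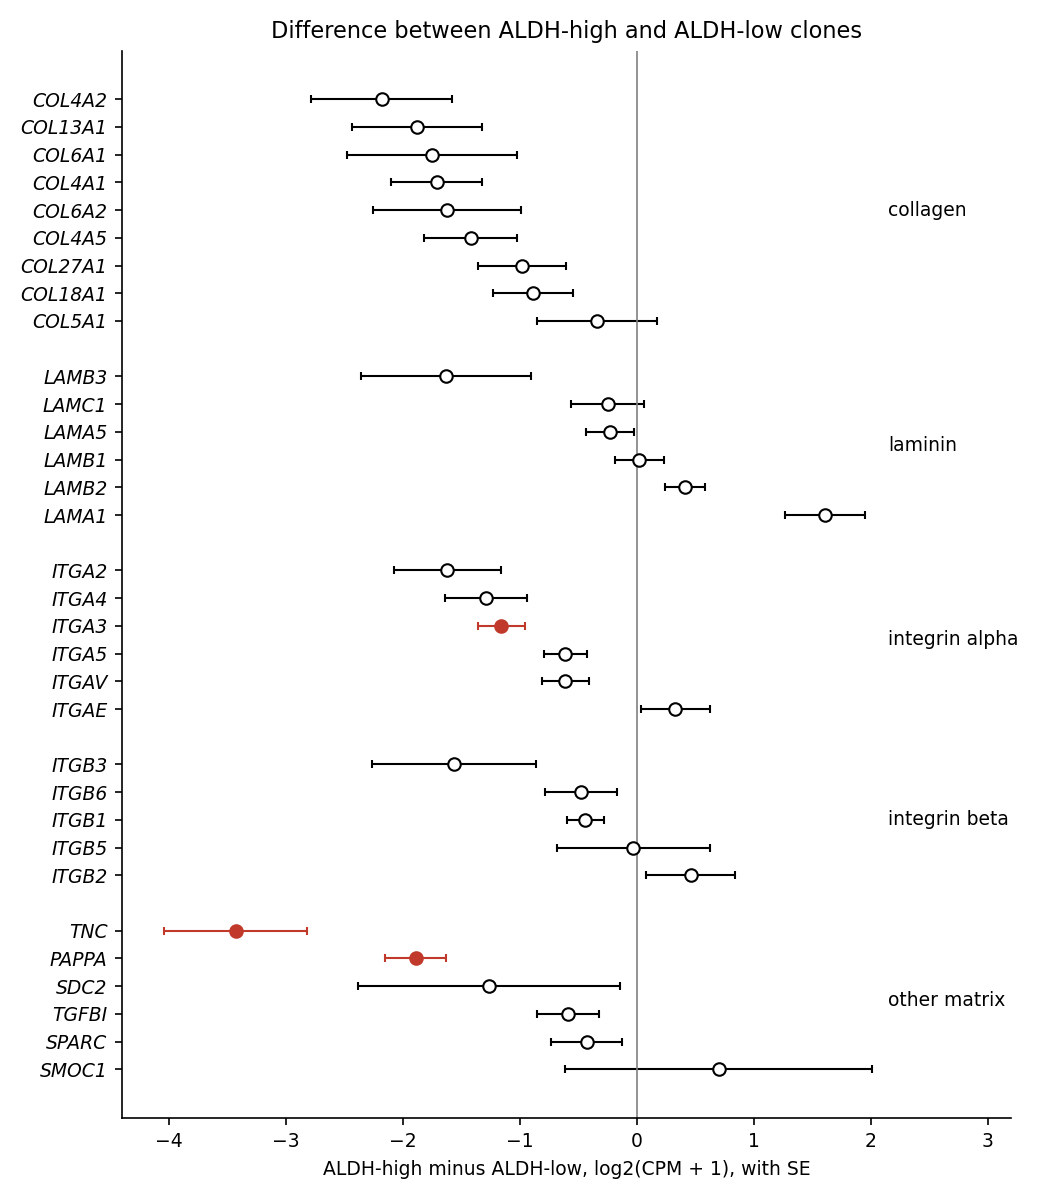
Difference of ALDH-high minus ALDH-low means on the log2(CPM + 1) scale for the 32 tested genes, by role; bars are the standard error from limma (3 clones in each group) and filled red points passed the adjusted threshold of 0.05. All 9 collagens lie left of 0, the laminins lie on both sides of it, and TNC is farthest left at -3.43.

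Among the integrins, 1 of 6 tested alpha genes fell and none of the 5 beta genes passed the test. The 5 tested alpha subunits that pair with the beta 1 subunit (ITGA2, ITGA3, ITGA4, ITGA5 and ITGAV) were lower in every ALDH-high clone than in any ALDH-low clone, and their median difference was -1.16. Groups lay apart in this direction in 12.1% of all tested genes. Of these 5, 1 fell by the adjusted test (0.693% of all tested genes), and all 5 had an unadjusted p under 0.05 (9.31%). The genes share the same 6 libraries, so they are not independent of one another. ITGA4 reached the filter through the ALDH-low clones alone. Its groups therefore had to lie apart, and it adds nothing to the count of genes with groups apart. Nor does ITGA4 add support to the unadjusted count or to the median.

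ITGA3, the alpha subunit of the laminin receptor alpha 3 beta 1 of epithelial cells, had 25.63, 39.73 and 36.48 CPM in H1, H6 and H10, against 81.52, 82.34 and 64.64 CPM in L1, L3 and L8, and 60.35 CPM in wild-type cells. The ALDH-high clones were below all other libraries, and wild type lay between the groups. Means were 33.9 ± 7.38 CPM in ALDH-high and 76.2 ± 9.99 CPM in ALDH-low clones (SD, n = 3 each), a log2 difference of -1.16 (SE 0.20, adjusted p = 0.0406, limma). The call held with edgeR (adjusted p = 0.0494) and DESeq2 (adjusted p = 8.56e-05). It was lost with a filter at 5 CPM (0.0511), without the variance trend (0.0553) and whichever clone was left out, with adjusted p from 0.053 without H1 to 0.154 without L1, while the difference stayed between -0.97 and -1.28.

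ITGA2, the alpha subunit of the collagen receptor alpha 2 beta 1, had 4.69, 21.10 and 16.60 CPM in H1, H6 and H10, against 44.80, 36.53 and 36.40 CPM in L1, L3 and L8, and 25.82 CPM in wild-type cells. H1 was the lowest of the 7 libraries and the groups did not overlap. The difference was -1.62 on the log2(CPM + 1) scale, or -1.02 without H1, and did not pass in limma (adjusted p = 0.117), while DESeq2 gave an adjusted p of 0.0188. ITGA4, a subunit that pairs with beta 1 or beta 7 and binds fibronectin and VCAM1, had 0.56, 0 and 0.12 CPM in H1, H6 and H10, against 1.04, 1.65 and 3.72 CPM in L1, L3 and L8, and 0.60 CPM in wild-type cells. ITGA4 was near the lower limit of the table in the ALDH-high clones (limma adjusted p = 0.108, DESeq2 0.0241).

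ITGA5, the alpha subunit of the main fibronectin receptor, had 42.96, 56.06 and 42.80 CPM in H1, H6 and H10, against 75.52, 59.71 and 83.92 CPM in L1, L3 and L8, and 133.05 CPM in wild-type cells. Its groups did not overlap, but H6 and L3 were close, and wild type was above all 6 clones. ITGAV, which joins several beta subunits in receptors for vitronectin and related ligands, had 16.45, 19.25 and 20.40 CPM in H1, H6 and H10, against 22.76, 30.01 and 35.60 CPM in L1, L3 and L8, and 19.34 CPM in wild-type cells. Both genes differed by -0.61 on the log2(CPM + 1) scale, with limma adjusted p values of 0.133 for ITGA5 and 0.159 for ITGAV. Around ITGAV 40 of 50 tested neighbours were lower in ALDH-high clones, with a median of -0.34. With each library's median neighbour deviation subtracted, the ITGAV difference was -0.29 (limma adjusted p = 0.469). ITGA4 and ITGAV both lie on chromosome 2, and 40 of 50 neighbours of ITGA4 were lower (median -0.45). The neighbours these 2 genes share were not counted, so the 2 sets are not to be read as separate observations. The subtracted ITGA4 difference was -0.93 (limma adjusted p = 0.229). Around ITGA5 7 of 50 neighbours were lower (median 0.31), and its subtracted difference was -0.91 (limma adjusted p = 0.12). For ITGA2 the neighbour median was -0.07 and the subtracted difference -1.62.

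The remaining alpha subunits were ITGAE, which did not share this pattern, and ITGA10, which had too few reads in the clones to tell. ITGAE, which pairs with beta 7 and binds E-cadherin, had 74.87, 36.82 and 38.48 CPM in H1, H6 and H10, against 31.12, 47.96 and 35.64 CPM in L1, L3 and L8, and 34.13 CPM in wild-type cells (limma adjusted p = 0.583). ITGAE overlaps GSG2 on the opposite strand, and the use of strand in the counting was not stated. ITGA10, a collagen-binding partner of beta 1, was untested: it had 0 CPM in each ALDH-high clone, against 0.08, 0.04 and 0 CPM in L1, L3 and L8, and 1.68 CPM in wild-type cells.

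ITGB1, the partner of the 5 alpha subunits, had 602.46, 707.45 and 561.68 CPM in H1, H6 and H10, against 852.56, 932.02 and 757.36 CPM in L1, L3 and L8, and 896.92 CPM in wild-type cells. It was the 1 beta gene whose groups did not overlap, and its log2 difference of -0.44 did not pass in limma (adjusted p = 0.182). No beta gene passed in limma or edgeR, 1 of 5 was lower at an unadjusted p under 0.05, and DESeq2 called 1 lower, ITGB3 (adjusted p = 0.0366). Of all tested genes 9.31% were lower at that unadjusted threshold and DESeq2 called 4.23% lower.

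The other beta subunits overlapped between the groups. ITGB3, the subunit of the platelet fibrinogen receptor and, with ITGAV, of a vitronectin receptor, had 1.31, 5.75 and 5.44 CPM in H1, H6 and H10, against 4.20, 36.26 and 12.32 CPM in L1, L3 and L8, and 3 CPM in wild-type cells. The ITGB3 difference was -1.56 (limma adjusted p = 0.268), or -0.84 without L3. ITGB5, another partner of ITGAV, had 26.54, 172.17 and 162.64 CPM in H1, H6 and H10, against 69.36, 131.44 and 88.68 CPM in L1, L3 and L8, and 27.38 CPM in wild-type cells. H1 and wild type were the low libraries of ITGB5: the difference was -0.03 with H1 and 0.84 without it. ITGB6, the epithelial partner of ITGAV that activates latent TGF-beta, had 0.56, 0.99 and 2.20 CPM in H1, H6 and H10, against 2.16, 2.51 and 1.44 CPM in L1, L3 and L8, and 1.16 CPM in wild-type cells. ITGB2, the leukocyte integrin subunit, averaged 1.66 ± 0.959 CPM in ALDH-high and 0.96 ± 0.781 CPM in ALDH-low clones (SD, n = 3 each, limma adjusted p = 0.547).

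**Figure D2:**
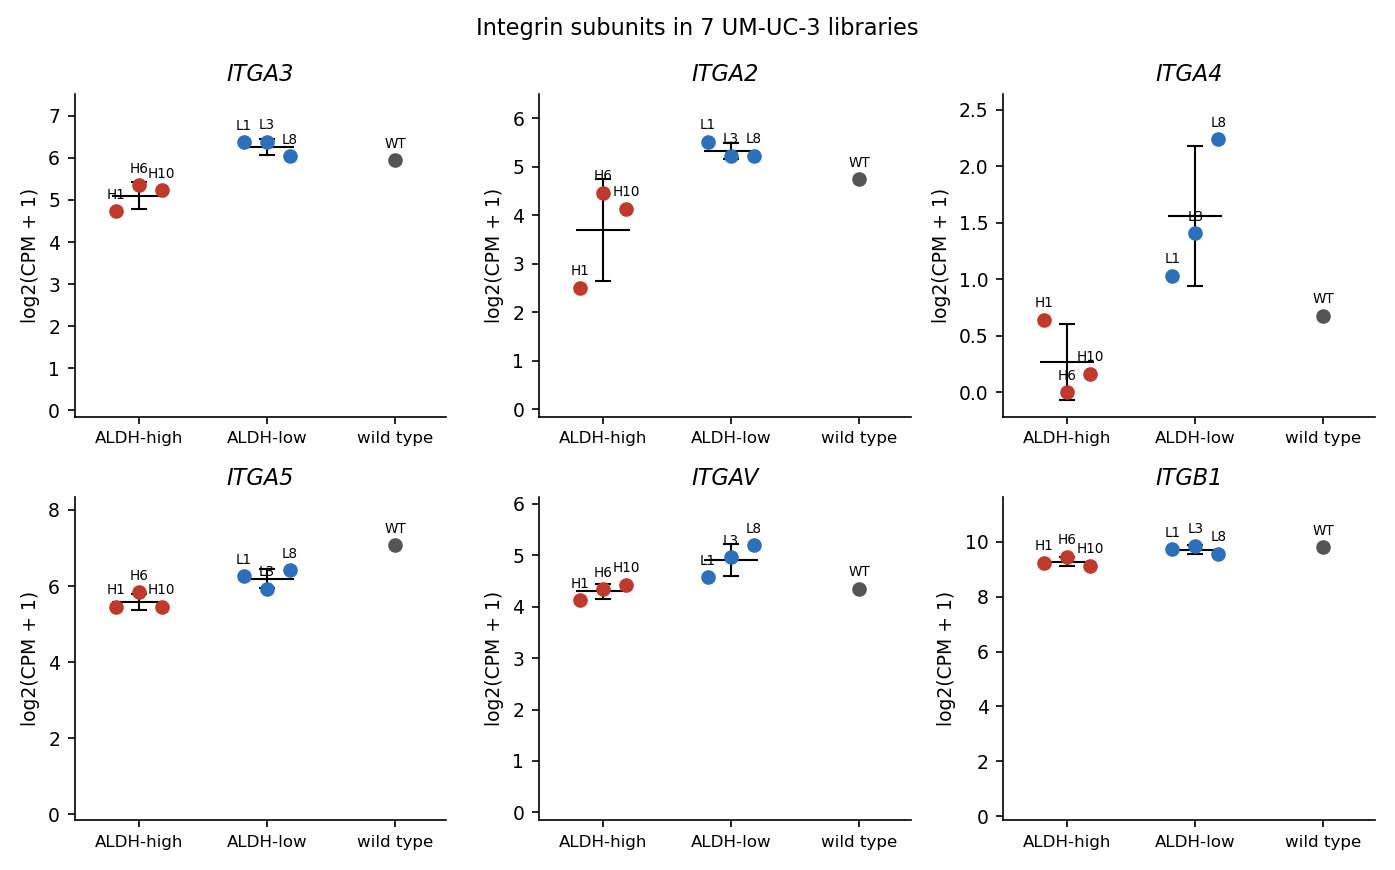
Level of 6 integrin subunit genes as log2(CPM + 1) in each library: ALDH-high clones (red), ALDH-low clones (blue) and wild type (grey); black lines are the group mean ± SD (n = 3 clones each, wild type 1 library). In all 6 genes the red points lie below the blue ones, which the filter fixed in advance for ITGA4. In ITGA5 wild type lies above the clones.

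TNC and PAPPA were nearly absent from ALDH-high clones, and both lie on chromosome 9. The 250 bases before their RefSeq start sites (build GRCh38.p14) are shown because TNC and PAPPA gave the most negative fitted differences among the genes that passed. TNC is at chr9:115118158-115118407 on the minus strand and PAPPA at chr9:116153541-116153790 on the plus strand. Capitals mark matches on either strand to the GC box (GGGCGG), the CCAAT box (CCAAT) and the TATA motif (TATAA); the AP-1 motif (TGANTCA) was also searched, with no match in either sequence.
TNC: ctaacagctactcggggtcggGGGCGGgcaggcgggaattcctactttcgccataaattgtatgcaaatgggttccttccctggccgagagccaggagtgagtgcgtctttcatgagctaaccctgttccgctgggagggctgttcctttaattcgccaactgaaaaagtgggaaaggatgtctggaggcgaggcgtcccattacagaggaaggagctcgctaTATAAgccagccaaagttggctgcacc
PAPPA: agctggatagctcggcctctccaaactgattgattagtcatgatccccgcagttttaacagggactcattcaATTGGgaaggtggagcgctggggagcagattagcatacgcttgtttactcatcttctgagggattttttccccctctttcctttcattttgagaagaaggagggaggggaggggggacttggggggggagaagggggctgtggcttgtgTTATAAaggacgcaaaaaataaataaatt
The TNC window holds a GC box at position 22 and a TATA motif at position 224, counted from its first base. The PAPPA window holds a CCAAT box at position 73 and 2 overlapping TATA matches, 1 on each strand. Of 34943 RefSeq windows of this length, 42.5% hold a GC box, 32% a CCAAT box, 19% a TATA motif and 6.59% an AP-1 motif, so these matches are a description of the sequence and not evidence of a bound factor. Of the 38 genes, 32 matched an entry in the promoter table.

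TNC, which encodes tenascin-C, had 0.12, 0.45 and 0.04 CPM in H1, H6 and H10, against 7.88, 37.79 and 5.08 CPM in L1, L3 and L8, and 3.16 CPM in wild-type cells. The ALDH-high clones together held 15 reads, against 1286 reads in the ALDH-low clones, and L3 alone stood 2.13 log2 units above every other library. The log2(CPM + 1) difference was -3.43 (SE 0.614, adjusted p = 0.0445, limma), and edgeR gave -6.38 on its own log2 scale (adjusted p = 0.0448). TNC reached the filter through the ALDH-low clones alone, so its groups had to lie apart and these p values are not independent support. Without L3 the difference was -2.63 with an adjusted p of 0.0131. The call was lost when any other clone was left out (adjusted p 0.0745 to 0.16), with no filter (0.0539) and with a filter at 5 CPM (0.0546). It was also lost with a pseudocount of 5 (0.105), without the variance trend (0.053) and with robust estimation (0.052).

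PAPPA encodes pregnancy-associated plasma protein A, a secreted protease that cleaves IGF-binding proteins. It had 0, 0.33 and 0.04 CPM in H1, H6 and H10, against 2.44, 4.48 and 2.72 CPM in L1, L3 and L8, and 0.44 CPM in wild-type cells. This amounts to 9 reads in the ALDH-high clones and 243 in the ALDH-low clones, with wild type near the ALDH-high side. The difference was -1.89 (SE 0.26, adjusted p = 0.0215, limma), and the call was lost without H10 (0.0982), L1 (0.0633) or L8 (0.096) and in edgeR (0.0517). PAPPA too reached the filter through the ALDH-low clones alone, so its groups had to lie apart. With no filter its limma adjusted p was 0.0225.

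The genes around TNC and PAPPA on chromosome 9 were on balance lower as well. Of the 50 tested genes nearest TNC, 45 were lower in ALDH-high clones, their median difference was -0.43, and 1 of them fell. PAPPA lies close by and shares 48 of these 50 neighbours, so its count, 45 of 50 with a median of -0.43, is not a separate observation. With each library's median neighbour deviation subtracted, the TNC difference was -3.0 (limma adjusted p = 0.0722) and the PAPPA difference -1.47 (adjusted p = 0.0361). For ITGA3 on chromosome 17, the 50 neighbours had a median of -0.03 and the subtracted difference was -1.17, with an adjusted p of 0.0553. The part of the neighbouring genes in these results was not tested further.

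**Figure D3:**
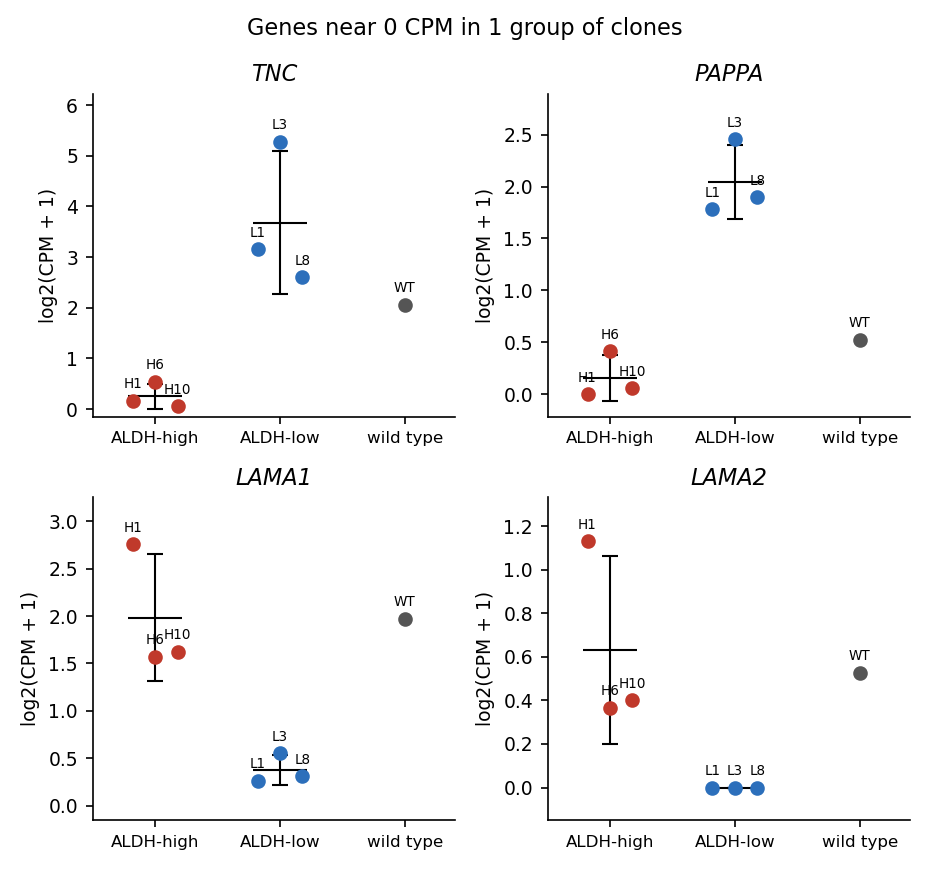
Level of TNC, PAPPA, LAMA1 and LAMA2 as log2(CPM + 1) in each library, coloured red for ALDH-high, blue for ALDH-low and grey for wild type; black lines are the group mean ± SD (n = 3 clones each). TNC and PAPPA lie near 0 in ALDH-high clones, and LAMA1 and LAMA2 lie near 0 in ALDH-low clones.

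The other 4 matrix genes overlapped between the groups. SPARC, a collagen-binding protein, had 46.85, 58.03 and 25 CPM in H1, H6 and H10, against 45.24, 69.37 and 54.56 CPM in L1, L3 and L8, and 65.06 CPM in wild-type cells (limma adjusted p = 0.476). TGFBI, a TGF-beta-induced adhesion protein, had 14.86, 27.91 and 15.56 CPM in H1, H6 and H10, against 23.96, 28.20 and 34.76 CPM in L1, L3 and L8, and 11.55 CPM in wild-type cells (adjusted p = 0.268). TGFBI was the 1 gene of the 38 with wild type below all 6 clones, where 24.1% of all listed genes had it there.

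In SDC2 and SMOC1 a single ALDH-low clone stood apart. SDC2, a heparan sulphate proteoglycan of the cell surface, had 2.23, 1.11 and 0.08 CPM in H1, H6 and H10, against 0.64, 35.79 and 0.68 CPM in L1, L3 and L8, and 1.48 CPM in wild-type cells. Its difference was -1.26 with L3 and 0.23 without it. SMOC1, a calcium-binding protein of basement membranes, had 12.80, 18.10 and 29.52 CPM in H1, H6 and H10, against 24.04, 68.31 and 0.08 CPM in L1, L3 and L8, and 31.97 CPM in wild-type cells. Its difference was 0.70 with L8, the clone with almost none, and -1.06 without it. Across the 38 genes, 4 had 1 library at least 2 log2 units from all others (TNC, COL6A1, SDC2 and SMOC1), where 0.613% of listed genes did.

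Collagen genes gave the lowest median difference of the 5 roles. All 9 tested collagens had a lower ALDH-high mean, with a median of -1.62, and the groups of 5 did not overlap (COL4A1, COL4A2, COL4A5, COL13A1 and COL27A1), as in 12.1% of all tested genes. None passed in limma or edgeR, 8 had an unadjusted p under 0.05 (9.31% of all tested genes), and DESeq2 called 6 lower (4.23%). H1 was the lowest library for 8 of the 13 collagens. With no filter, 10 of the 13 were lower and 3 higher in ALDH-high clones, with a median of -0.98. COL4A1 and COL4A2 are adjacent genes, as are COL6A1 and COL6A2, so the 9 tested collagens are not independent of one another.

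COL4A1 and COL4A2 encode the most widespread chains of basement membrane collagen, and lie head to head on chromosome 13. The 126 bases between their RefSeq starts are shown because the 2 genes share them: chr13:110307158-110307283 in GRCh38.p14, plus strand, with a CCAAT box at position 22 and a GC box at position 62 in capitals.
COL4A1-COL4A2 interval: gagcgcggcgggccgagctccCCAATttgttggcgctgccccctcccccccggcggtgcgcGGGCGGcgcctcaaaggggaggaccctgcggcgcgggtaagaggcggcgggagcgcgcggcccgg
In windows of the same 126 bases taken before each RefSeq start, 21.1% hold a CCAAT box and 34.5% a GC box. No TATA or AP-1 motif matched; 10.6% and 3.51% of windows hold those.

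COL4A1 had 1.51, 6.44 and 5 CPM in H1, H6 and H10, against 13.36, 13.59 and 17.60 CPM in L1, L3 and L8, and 3.16 CPM in wild-type cells. COL4A2 had 2.82, 24.30 and 14.72 CPM in H1, H6 and H10, against 50.28, 43.96 and 59.84 CPM in L1, L3 and L8, and 9.27 CPM in wild-type cells. Both were lowest in H1 and highest in L8, wild type lay within the ALDH-high range, and the groups did not overlap. The differences were -1.71 for COL4A1 (SE 0.389, limma adjusted p = 0.0792, DESeq2 0.00393) and -2.18 for COL4A2 (limma adjusted p = 0.113, DESeq2 0.0132), and without H1 the COL4A2 difference was -1.38. The ratio of COL4A2 to COL4A1 was 1.87, 3.77 and 2.94 in H1, H6 and H10, against 3.76, 3.23 and 3.40 in L1, L3 and L8, and 2.93 in wild-type cells. The 2 genes overlap in the GENCODE annotation, so reads at the shared start could be split between them. Of the 44 tested neighbours of COL4A1, 38 were lower in ALDH-high clones (median -0.48), and with the neighbours subtracted the COL4A1 difference was -1.19 (limma adjusted p = 0.184).

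COL4A5 and COL4A6 are another head-to-head type IV pair, on the X chromosome, and their RefSeq starts lie 379 bases apart. COL4A5 had 1.11, 3.04 and 0.68 CPM in H1, H6 and H10, against 4.60, 9.07 and 3.88 CPM in L1, L3 and L8, and 6.75 CPM in wild-type cells (difference -1.42, limma adjusted p = 0.114, DESeq2 0.0271). COL4A6 had 0, 0.78 and 0 CPM in H1, H6 and H10, against 0.36, 2.55 and 0.12 CPM in L1, L3 and L8, and 0.64 CPM in wild-type cells, and was not tested. Within each group of clones both genes were highest in the same clone, H6 among the ALDH-high and L3 among the ALDH-low.

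COL6A1 and COL6A2, which encode 2 chains of beaded-filament collagen and neighbour each other on chromosome 21, peaked in L8. COL6A1 had 0.87, 3 and 2.72 CPM in H1, H6 and H10, against 6.60, 2.95 and 33.92 CPM in L1, L3 and L8, and 5.52 CPM in wild-type cells. COL6A2 had 2.98, 7.26 and 5.88 CPM in H1, H6 and H10, against 18.72, 5.93 and 46.64 CPM in L1, L3 and L8, and 12.95 CPM in wild-type cells. L3 lay within the ALDH-high range in both genes, so the groups overlapped, and L8 stood 2.20 log2 units above all other libraries in COL6A1. The COL6A1 difference of -1.75 (limma adjusted p = 0.235) and the COL6A2 difference of -1.62 (0.211) did not pass, while DESeq2 gave 0.00786 for COL6A1 and 0.00896 for COL6A2. Without L8 the differences were -0.85 for COL6A1 and -0.94 for COL6A2. Of the tested neighbours, 28 of 35 were lower in ALDH-high clones for COL6A1 and 28 of 34 for COL6A2. With neighbours subtracted the differences were -1.54 for COL6A1 (limma adjusted p = 0.293) and -1.38 for COL6A2 (0.272).

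**Figure D4:**
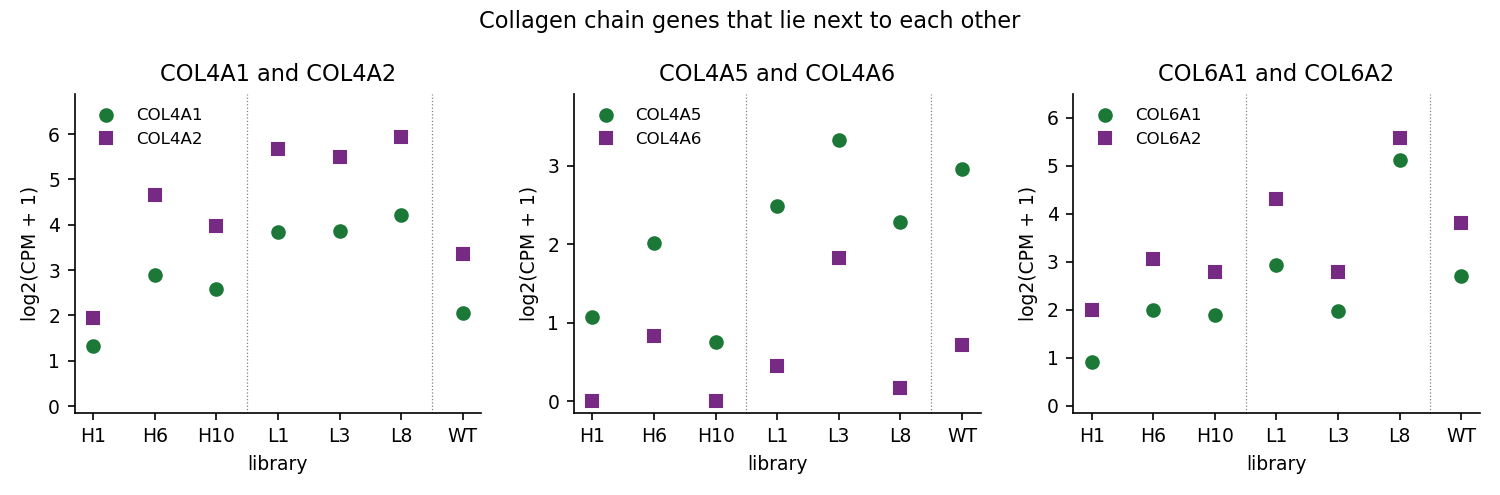
Level as log2(CPM + 1) of 3 pairs of adjacent collagen genes in the 7 libraries, with dotted lines between ALDH-high clones (H), ALDH-low clones (L) and wild type (WT). COL4A1 and COL4A2 are lowest in H1 and highest in L8, and COL6A1 and COL6A2 are highest in L8.

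COL13A1, a transmembrane collagen, had 1.27, 6.20 and 2.92 CPM in H1, H6 and H10, against 27.60, 6.36 and 14.16 CPM in L1, L3 and L8, and 16.59 CPM in wild-type cells. Its groups were separated only by the small gap between H6 and L3 (difference -1.88, limma adjusted p = 0.128, DESeq2 0.00679). COL27A1, a fibrillar collagen of cartilage, had 0.52, 2.75 and 2.32 CPM in H1, H6 and H10, against 3.12, 4.05 and 5.96 CPM in L1, L3 and L8, and 0.96 CPM in wild-type cells. Its difference was -0.98 (limma adjusted p = 0.205), or -0.57 without H1. COL27A1 lies on chromosome 9 and shares 45 of its 50 tested neighbours with TNC. Of the 50, 44 were lower, and with them subtracted the COL27A1 difference was -0.54 (limma adjusted p = 0.447). COL18A1, whose C-terminal fragment is endostatin, averaged 2.29 ± 0.829 CPM in ALDH-high and 5.31 ± 2.66 CPM in ALDH-low clones (SD, n = 3 each, limma adjusted p = 0.204), with a log2 difference of -0.89, or -0.57 without L3. It lies on chromosome 21 with COL6A1 and COL6A2, and 30 of its 37 tested neighbours were lower. With them subtracted the COL18A1 difference was -0.66 (limma adjusted p = 0.38). COL5A1, a regulatory fibrillar chain, had a difference of -0.34 (adjusted p = 0.753), which was 0.05 without L8.

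The untested COL11A1, a fibrillar chain of cartilage, was read almost wholly in H10 and in wild-type cells. It had 0.16, 0 and 22.64 CPM in H1, H6 and H10, against 0.04, 0 and 0 CPM in L1, L3 and L8, and 5.24 CPM in wild-type cells. The ALDH-high clones held 570 reads, 566 of them in H10, against 1 read in the ALDH-low clones, a ratio of 577 (95% exact counting interval 103 to 22800, counting error only). It is a value of 1 clone and not of the group. COL12A1, a collagen on the surface of fibrils, had 1.67, 0.04 and 0 CPM in H1, H6 and H10, against 0.08, 0.16 and 0.24 CPM in L1, L3 and L8, and 0.04 CPM in wild-type cells. COL17A1, a hemidesmosome collagen, had 0.08, 0.74 and 0.40 CPM in H1, H6 and H10, against 0.44, 0.27 and 0.28 CPM in L1, L3 and L8, and 1.16 CPM in wild-type cells.

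**Figure D5:**
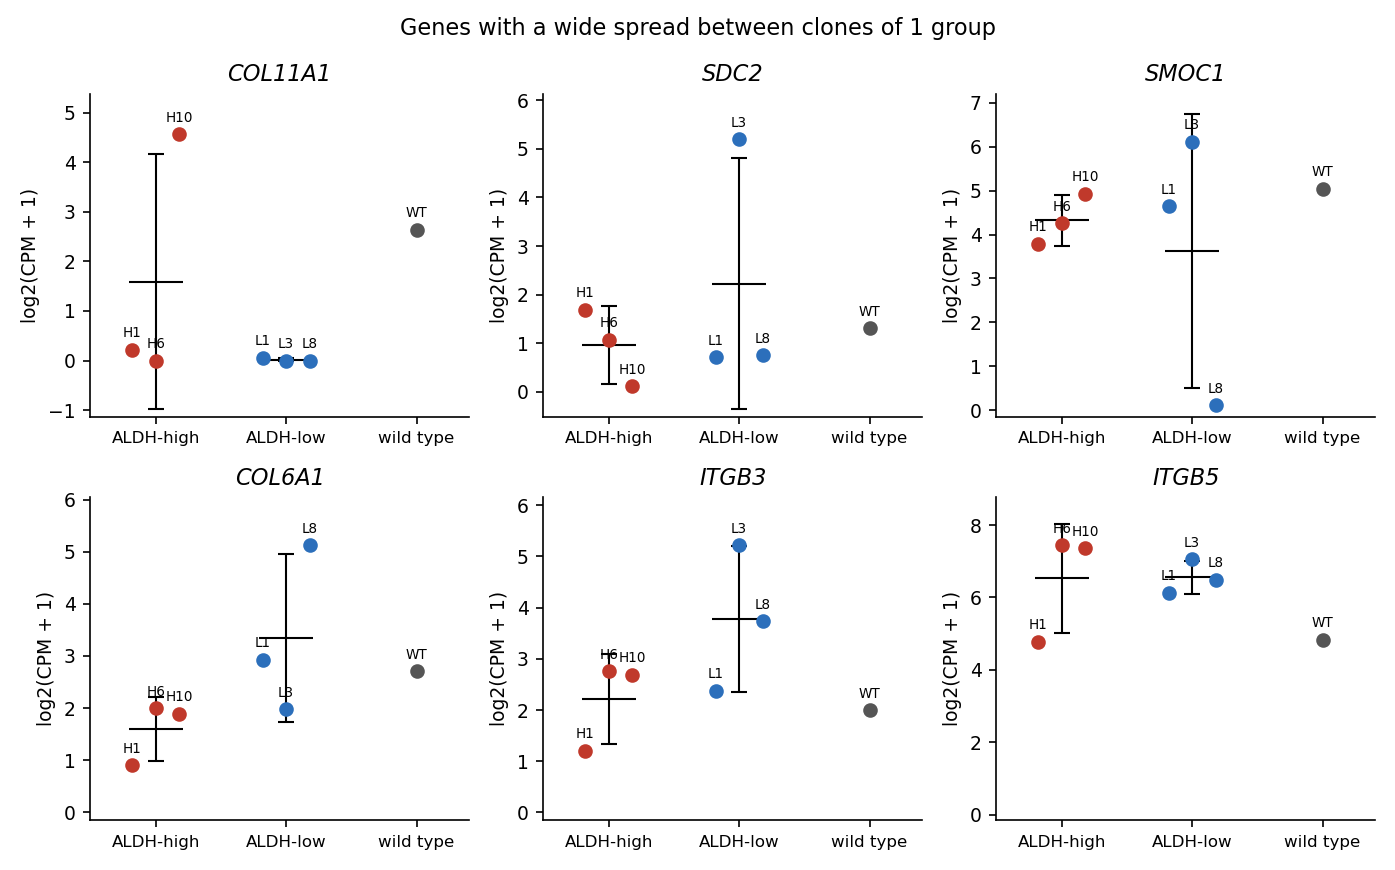
Level as log2(CPM + 1) of 6 genes with a wide spread between clones of 1 group, coloured red for ALDH-high, blue for ALDH-low and grey for wild type; black lines are the group mean ± SD (n = 3 clones each). H10 carries COL11A1, L3 carries SDC2, L8 is near 0 in SMOC1 and high in COL6A1, and H1 is low in ITGB5, as is wild type.

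Laminin genes ran both ways. Of 6 tested, 3 had a lower and 3 a higher ALDH-high mean of log2(CPM + 1), and the median was -0.11; the LAMB1 means differed by only 0.02. None passed in limma or edgeR, 0 were lower and 2 higher at an unadjusted p under 0.05, and DESeq2 called 1 lower and 1 higher. The shares of all tested genes were 9.31% lower and 10.4% higher unadjusted, and 4.23% lower and 3.67% higher in DESeq2.

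LAMA1, the alpha chain of embryonic laminin-111, had 5.76, 1.97 and 2.08 CPM in H1, H6 and H10, against 0.20, 0.47 and 0.24 CPM in L1, L3 and L8, and 2.92 CPM in wild-type cells. LAMA1 reached the filter through the ALDH-high clones alone, so its groups had to lie apart. There were 245 reads in ALDH-high and 23 in ALDH-low clones, and wild type lay within the ALDH-high range. The difference of 1.61 (SE 0.341) did not pass in limma (adjusted p = 0.0671) or edgeR (0.0504), but did in DESeq2 (5.9e-05), with a pseudocount of 0.1 (0.0488) and with library weights (0.028). LAMA2, the alpha chain of muscle and nerve laminin, had 1.19, 0.29 and 0.32 CPM in H1, H6 and H10, against 0 CPM in each of L1, L3 and L8, and 0.44 CPM in wild-type cells. Its 45 reads in ALDH-high clones, 30 of them in H1, against 0 make it at least 15.2-fold higher there, taking a floor of 3 reads over the group. That bound pools the clones and does not cover the spread between them. LAMA2 was under the filter and not tested.

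LAMB2, the beta 2 chain, had 41.60, 35.17 and 30.28 CPM in H1, H6 and H10, against 28.48, 24.79 and 25.88 CPM in L1, L3 and L8, and 58.75 CPM in wild-type cells. The groups did not overlap (difference 0.41, limma adjusted p = 0.23), but 6 of its 50 neighbours were lower, with a neighbour median of 0.43, and the LAMB2 difference was -0.04 with them subtracted. LAMB3, a chain of laminin-332, the anchor of hemidesmosomes, had 1.11, 2.18 and 3.68 CPM in H1, H6 and H10, against 16.96, 1.65 and 18.40 CPM in L1, L3 and L8, and 13.07 CPM in wild-type cells. L3 alone of the ALDH-low clones was low: the difference was -1.63 (adjusted p = 0.266) with it and -2.56 (0.0278) without it.

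The remaining laminin chains did not separate the clones. LAMA5 had 6.60, 9.93 and 8.52 CPM in H1, H6 and H10, against 11.04, 9.19 and 9.48 CPM in L1, L3 and L8, and 18.02 CPM in wild-type cells. LAMB1 had 16.69, 14.65 and 16.36 CPM in H1, H6 and H10, against 17.48, 18.54 and 11.76 CPM in L1, L3 and L8, and 28.78 CPM in wild-type cells. LAMC1, the gamma chain of most laminins, had 27.74, 59.72 and 64.52 CPM in H1, H6 and H10, against 49.08, 66.39 and 55.44 CPM in L1, L3 and L8, and 34.45 CPM in wild-type cells. Wild type was above all 6 clones in LAMA5, LAMB1 and LAMB2, and in 6 of the 38 genes in all (ITGA5, ITGA10 and COL17A1 besides), where 23.8% of all listed genes were. By at least 1 log2 unit it was above all clones in ITGA10 alone (1.61% of listed genes) and below them in 0 of the 38 (0.606%).

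H1 was the lowest of the 7 libraries in 18 of the 38 genes (47.4%), H10 in 7, and H6 and wild type in 1 each. The share of all listed genes was 11.8% for H1, 13% for H10, 8.72% for H6 and 24.1% for wild type. The median deviation from each gene's mean, in log2(CPM + 1), was -0.60 in H1, -0.05 in H6 and -0.33 in H10, against 0.14 in L1, 0.35 in L3 and 0.24 in L8, and 0.22 in wild-type cells, over the 38 genes. Over all tested genes it lay between -0.04 and 0.04 in every library. H10, L1 and L8 share nearly the same library size in the authors' scaling, and the other 4 libraries differ from it. Within these 3 libraries, H10 against L1 and L8, 23 of the 32 genes were lower in ALDH-high, against 6338 of all 12705 tested genes. For H1 and H6 against L3 it was 27 of the 32, against 6230 of the 12705. Each comparison has a group of 1 library, so the values below have no measured spread in that group. ITGA3 differed by -0.97 and -1.34 in these comparisons, TNC by -2.82 and -4.93, and PAPPA by -1.78 and -2.25.

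Other genes of matrix adhesion were taken from lists. Of 30 integrin adhesion adaptors 22 were listed and tested: 17 had a lower ALDH-high mean, the median was -0.40, and none passed in limma or edgeR (9 lower and 2 higher at an unadjusted p under 0.05, DESeq2 3 lower). The shares of all tested genes were 9.31% and 10.4% unadjusted and 4.23% lower in DESeq2, and the 2 higher genes were FERMT1 (log2 difference 0.62) and ZYX (0.72), named here after their values were seen. FLNA, an actin crosslinker that binds beta subunits, averaged 300 CPM in ALDH-high and 537 CPM in ALDH-low clones (limma adjusted p = 0.0654). TLN1, the talin that activates integrins, averaged 138 CPM in ALDH-high and 300 CPM in ALDH-low clones (adjusted p = 0.142), and its paralogue TLN2 9.25 CPM in ALDH-high and 14.9 CPM in ALDH-low clones (adjusted p = 0.11).

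Of 15 non-integrin matrix receptors 13 were listed and tested, with a median of -0.23. None passed in limma or edgeR (3 lower and 0 higher unadjusted, DESeq2 2 lower). The shares of all tested genes were 9.31% lower and 10.4% higher unadjusted, and 4.23% lower in DESeq2. DDR2, a receptor kinase for fibrillar collagen, averaged 0.417 CPM in ALDH-high and 2.39 CPM in ALDH-low clones (adjusted p = 0.0759) and reached the filter through the ALDH-low clones alone. Its relative DDR1 averaged 2.89 CPM in ALDH-high and 5.26 CPM in ALDH-low clones (adjusted p = 0.147). SDC1, an epithelial syndecan, averaged 53 CPM in ALDH-high and 109 CPM in ALDH-low clones (adjusted p = 0.0777).

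Genes that modify and crosslink collagen had means on both sides. Of 31, 19 were listed and tested, 10 with a lower and 9 with a higher ALDH-high mean (median -0.01). None passed in limma or edgeR (2 lower and 2 higher unadjusted, DESeq2 1 lower and 1 higher). The shares of all tested genes were 9.31% lower and 10.4% higher unadjusted, and 4.23% lower and 3.67% higher in DESeq2. P4HA2, a prolyl hydroxylase subunit, averaged 13 CPM in ALDH-high and 30.8 CPM in ALDH-low clones (adjusted p = 0.106), and LOXL2, a lysyl oxidase, 116 CPM in ALDH-high and 179 CPM in ALDH-low clones (adjusted p = 0.191). CRTAP, part of the prolyl 3-hydroxylation complex, averaged 85.1 CPM in ALDH-high and 58.3 CPM in ALDH-low clones (adjusted p = 0.108). Of 45 other matrix glycoproteins and proteoglycans 23 were listed and 15 tested, with a median of -0.30, against 0.02 over all 23 with no filter (11 lower, 12 higher). In limma 1 rose and none fell, with 5 lower and 3 higher unadjusted. In edgeR 1 was called higher, and in DESeq2 2 were called lower and 1 higher. Of all tested genes 0.645% rose in limma and 0.425% were called higher in edgeR. Their unadjusted and DESeq2 shares were those given above for the collagen-modifying genes. The gene that rose was EDIL3, an integrin-binding glycoprotein, at 35.3 CPM in ALDH-high against 0.347 CPM in ALDH-low clones (limma adjusted p = 0.000579). It reached the filter through the ALDH-high clones alone, so it had to differ in level.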

How the data were processed

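RNA of 3 ALDH-high clones, 3 ALDH-low clones and 1 wild-type culture was compared. The authors deposited CPM values rounded to 2 decimals. The submitters' processing notes name BWA 0.5.9, hg19 and mm9 with no role, and the file headers carry the word CAGEr (software for 5′-end tags), but library type and counting are not given in the sources used here. Each gene of the table has 0.52 CPM or more in some library. Whole reads were recovered from the CPM steps in 100% of values at a tolerance of 0.0051 CPM (78.71 to 99.81% by library at 0.1 read); 3 reads equal 0.118 to 0.123 CPM. On those reads, edgeR 4.0.16 called 75 genes lower and 54 higher. In 1017 genes all 7 values equal those of another gene.

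The main test was limma 3.58.1 (R 4.3.3, variance trend, two-sided) on log2(CPM + 1), which understates changes of low genes, after a filter of 1 CPM in 3 of the 6 clones (12705 genes), with Benjamini-Hochberg adjustment. DESeq2 1.42.0, other filters, pseudocounts, scalings and left-out clones were alternatives. Neighbours are the 25 tested genes on each side in GENCODE 29 (96.59% of identifiers matched). An exact permutation of 3 against 3 clones cannot give a p below 0.1. The members and lists were chosen with earlier results of these data known. Given in full are genes that passed, genes with groups apart by 1 log2 unit, the 3 highest of each role, and genes with a clone or wild type apart. The fits were also run on simulated reads. That simulation left out genes of few reads and gave all genes the same spread setting. It does not show how the fits behave for genes of few reads or genes whose clones differ widely.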

Additional observations from a re-analysis of the deposited data

How the results depend on the processing

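Of 627 pairs of a tested gene and an alternative setting, 565 kept the direction and the side of the threshold, 24 lost a call, 17 gained 1 and 21 changed sign. The number of genes that fell, 3, was 0 with a filter at 5 CPM, 1 without the variance trend, 5 with library weights, 14 with DESeq2, 1 with neighbours subtracted and 0 to 3 when 1 clone was left out. It was 2 with a pseudocount of 5, with no filter, with robust estimation and in edgeR. The share of all genes called with library weights was not taken. The number that rose, 0, was 1 with a pseudocount of 0.1, with library weights and with DESeq2. The median difference of -0.75 was -0.49 with a pseudocount of 5 and -0.97 to -0.56 with 1 clone left out. Genes with groups apart and higher, 2 of those tested, were 1 with a filter at 5 CPM. That filter left 20 of the 32 tested genes, without PAPPA and LAMA1. The sign changed in 8 genes. ITGB5 gave 0.00 with quantile normalization, 0.64 with library weights, 0.30 in edgeR, 0.31 in DESeq2 and -0.49 to 0.84 over left-out clones. LAMB1 gave -0.03 in edgeR, -0.02 in DESeq2, -0.08 with neighbours subtracted and -0.17 to 0.14 over left-out clones. SMOC1 gave -0.64 in edgeR and DESeq2 and -1.06 to 1.95 over left-out clones. LAMC1 gave 0.06 with library weights and -0.46 to 0.13 over left-out clones, SDC2 -2.01 to 0.23 and COL5A1 -0.90 to 0.05. With neighbours subtracted ITGB6 gave 0.08 and LAMB2 -0.04. The cause was not tested. No paired analysis was possible because clone numbers are names of separate clones and do not pair the groups. With 3 clones from 1 line in each group, a difference that missed the threshold is not shown to be absent, and genes near 0 CPM rest on few reads.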
